A study of Mus musculus with 12 samples.

Results

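The 10 genes described here belong to the AP-1 transcription factor family and its immediate early relatives, and were measured in dorsal skin of BALB/c mice with atopic dermatitis-like lesions. They are among the 36400 genes in the deposited skin table and were taken by symbol: the Fos genes Fos, Fosb, Fosl1 and Fosl2, the Jun genes Jun, Junb and Jund, the partners Atf3 and Batf, and the zinc finger gene Egr1. All 10 passed the filter on low values. RNA was sequenced in 12 libraries, 3 in each of 4 groups of mice, which were female and 6 weeks old when bought. The study's methods give 6 mice per group and do not say how the 3 libraries of a group were drawn from them. Control mice received only the vehicle of acetone and olive oil. Mice of the DNCB group had 1% 1-chloro-2,4-dinitrobenzene, a contact sensitizer, painted on shaved skin from day 0 to day 9, and 0.5% DNCB from day 12 to day 27. The scMSC group had the same DNCB course and 4 doses of 2000000 human umbilical cord mesenchymal stem cells (MSCs) injected subcutaneously in 100 µL between day 13 and day 25. For scivMSC, part of each dose (50 µL) went under the skin and the rest (50 µL) into a tail vein. Skin was taken on day 30, so every exposed animal, with or without MSCs, had carried the same agent, and no group received MSCs without DNCB.

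AP-1 is a dimer of a Fos protein and a Jun protein, or of a Jun protein and a related leucine zipper protein such as ATF3 or BATF, that binds a short palindromic DNA site. Genes such as Fos, Fosb and Egr1 are immediate early genes: MAP kinases and the factors SRF and CREB switch them on within minutes of a stimulus without new protein synthesis, and their messenger RNA is lost again soon after. In skin, AP-1 is known for its part in keratinocyte differentiation, wound repair and inflammation.

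Levels are given as FPKM, a fragment count scaled for transcript length and library depth, so genes can be compared with each other. Fold changes come from the edgeR quasi-likelihood F-test on the estimated counts, as log2 fold change ± standard error (SE), with p-values adjusted over all 21890 genes tested. A gene is said to rise or fall, or to be called, at an adjusted p under 0.05. The test also scales each library by a TMM factor, a correction for differences in RNA make-up that FPKM does not carry. This factor was 0.887 to 0.961 in control libraries and 1.03 to 1.04 in DNCB libraries, so FPKM ranges and tested fold changes can differ. Libraries held 63877153 to 75134001 estimated counts, and the lowest count of any of the 10 genes in any library was 21. That was Batf in the third scMSC library. About 4 estimated counts may stand for 1 fragment, so Batf and Fosl1 rest on few fragments outside the DNCB group. In bulk skin, more cells of a type and more RNA per cell cannot be told apart. The marker genes of skeletal muscle summed to 15500 to 22400 FPKM in control libraries and to 4190 to 11200 FPKM in the libraries of the exposed groups, so muscle transcript was more abundant in the control pieces.

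In the DNCB group 4 of the 10 genes, Fosl1, Batf, Junb and Fosl2, were higher than in the control group, and none was lower. Across all genes tested, 12.9% rose and 25.3% changed in either direction. Against scMSC, Fosl1 and Batf were higher in the DNCB group and Jund was lower, where 5.77% of all genes were higher and 6.95% lower. Against scivMSC, Junb alone was called, as higher in DNCB, where 3.6% of all genes were higher. Fos, Fosb, Jun, Atf3 and Egr1 were called in none of these 3 comparisons. For each of them, and also for Fosl1, Junb and Batf, the first DNCB library held the highest level among the 12 libraries. The 3 comparisons share the DNCB libraries and are not independent. For DNCB minus control, scMSC and scivMSC in turn, the median log2 fold change was 1.00, 0.92 and 0.97 over the 10 genes and 0.022, -0.016 and -0.023 over all genes tested. Without the first DNCB library the medians over the 10 genes were 0.18, 0.22 and -0.088.

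**Figure D1:**
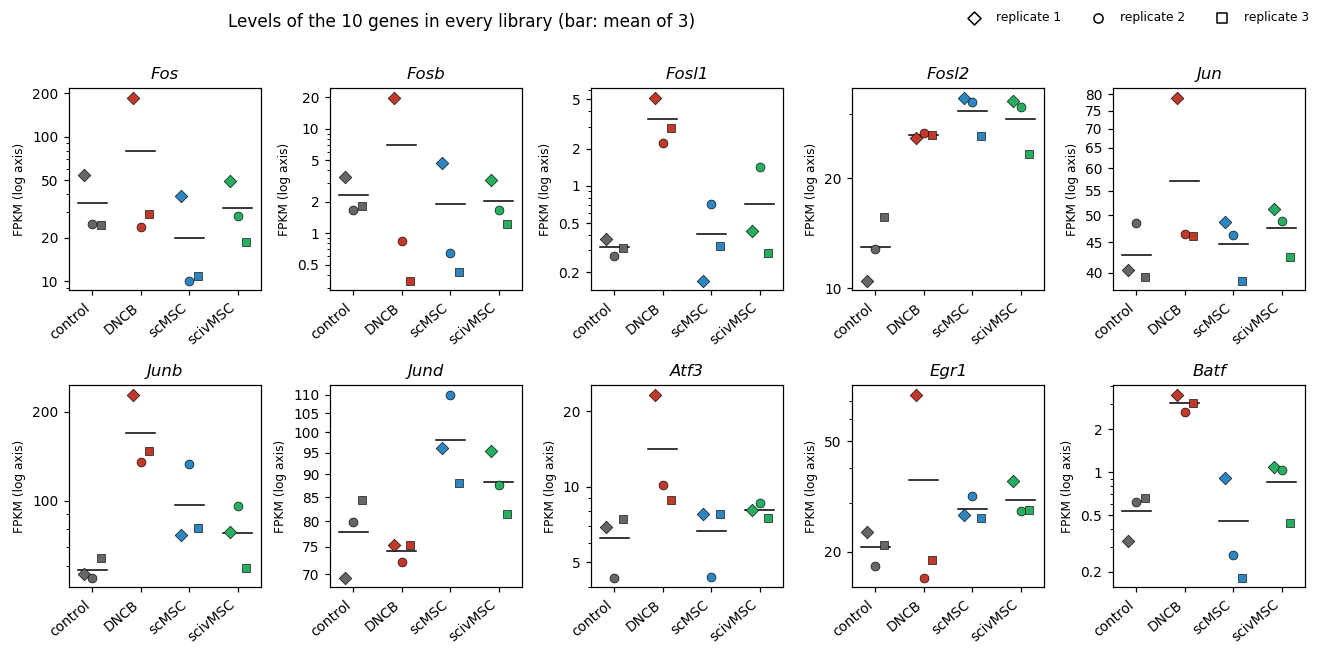
FPKM (log axis) of each of the 10 genes in the 12 libraries, by group, with a diamond, circle or square for replicates 1, 2 and 3 and a bar at the mean of 3. For Fosl1 and Batf all 3 DNCB libraries lie above every other library, while for Fos, Fosb and Egr1 the diamond of the DNCB group, at 187, 19.9 and 73.8 FPKM, stands far from the 2 other DNCB libraries.

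Fos encodes c-Fos, the prototype immediate early AP-1 subunit. The table lists it as ENSMUSG00000021250 at chr12:85473890-85477273, plus strand, in coordinates of GRCm38. Its levels were 54.3, 25 and 24.7 FPKM in the control group and 187, 23.8 and 29.1 FPKM in the DNCB group. They were 38.7, 10.1 and 10.8 FPKM in the scMSC group and 49.1, 28.5 and 18.6 FPKM in the scivMSC group. One DNCB library was 7.06 times the mean of the other 2, and these 2 lay within the range of the control libraries or just below it. DNCB differed by a log2 fold change of 1.01 ± 0.79 from control (adjusted p = 0.395), 2.01 ± 0.81 from scMSC (adjusted p = 0.146) and 1.32 ± 0.80 from scivMSC (adjusted p = 0.370). Without the first DNCB library it was -0.58 against control (adjusted p = 0.567), 0.42 against scMSC (adjusted p = 0.776) and -0.27 against scivMSC (adjusted p = 0.876), so the direction against control and scivMSC rested on that library.

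The sequence before the start of Fos is shown because it is the textbook immediate early promoter and holds both short motifs found among these genes. It spans the 250 bases upstream of the gene's start, chr12:85473640-85473889 on the plus strand of GRCm38.p6 (RefSeq), with the short cAMP response site TGACGT and the TATA box TATAAA in capitals. The short site lies 66 to 61 bases and the TATA box 33 to 28 bases before the start.
Fos: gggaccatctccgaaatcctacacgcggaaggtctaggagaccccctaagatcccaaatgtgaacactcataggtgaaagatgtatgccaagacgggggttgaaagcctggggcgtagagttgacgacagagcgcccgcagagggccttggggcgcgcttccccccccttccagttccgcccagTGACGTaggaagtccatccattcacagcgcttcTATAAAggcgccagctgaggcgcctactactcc
Of the 10 genes, 8 had a promoter window of 250 bases before to 50 after the start that RefSeq gives. That start is the table's gene start for Fos and Jun and lies within 51 bases of it for Fosb, Junb and Batf, but it is 671 bases downstream for Fosl2, 1210 bases upstream for Jund and 34706 bases downstream for Atf3, so the windows of these 3 genes are not at the start used in the deposited table. The short site TGACGT, searched on both strands, was present in the windows of Fos, Atf3 and Batf, against 7.51% of all 32851 windows, and TATAAA in those of Fos and Junb, against 13.6%. The AP-1 site TGACTCA, the full cAMP response element TGACGTCA, which contains the short site, the serum response (CArG) box and the Egr site GCGTGGGCG were in 0 of the 8 windows, against 5.20%, 1.79%, 1.63% and 0.612% of all windows. These letters were searched only within the windows.

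Fosb, the closest relative of Fos among the Fos genes, had a similar order of libraries at lower levels. It was at 3.44, 1.68 and 1.82 FPKM in the control group, 19.9, 0.834 and 0.351 FPKM in the DNCB group, 4.68, 0.647 and 0.423 FPKM in the scMSC group and 3.25, 1.67 and 1.22 FPKM in the scivMSC group. The highest and the lowest of the 12 levels were thus both in the DNCB group, 56.7 times apart. Its log2 fold changes of 1.41 ± 1.27 against control (adjusted p = 0.467), 1.88 ± 1.29 against scMSC (adjusted p = 0.416) and 1.78 ± 1.29 against scivMSC (adjusted p = 0.468) were less than 2 SE from 0. They turned to -2.14, -1.67 and -1.77 without the first DNCB library (adjusted p = 0.162, 0.366 and 0.368).

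Egr1 encodes a zinc finger factor that SRF and MAP kinases induce together with Fos. Control libraries held 23.6, 17.7 and 21.1 FPKM and DNCB libraries 73.8, 16.1 and 18.6 FPKM. Libraries of the scMSC group held 27.1, 31.7 and 26.5 FPKM and those of the scivMSC group 36.1, 28.1 and 28.2 FPKM. In FPKM, every library of both MSC groups was above every control library and above the second and the third DNCB library. The edgeR test, which adds the TMM factors, did not call Egr1 in either MSC group against control. Its log2 fold change there was 0.30 ± 0.46 in scMSC (adjusted p = 0.713) and 0.39 ± 0.46 in scivMSC (adjusted p = 0.649). In DNCB the log2 fold change was 0.61 ± 0.47 against control (adjusted p = 0.377), 0.31 against scMSC (adjusted p = 0.752) and 0.22 against scivMSC (adjusted p = 0.843). Leaving out the first DNCB library turned these to -0.44 (adjusted p = 0.125), -0.74 (adjusted p = 0.0402) and -0.83 (adjusted p = 0.0454), so that Egr1 was then called lower in the DNCB group than in each MSC group. That library was left out as one of the 12 omissions made for every result, and the result is not called with all 12 libraries.

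Atf3, a stress-induced partner that often represses its targets, was at 6.94, 4.35 and 7.43 FPKM in the control group and at 23.3, 10.2 and 8.90 FPKM in the DNCB group. It was at 7.80, 4.37 and 7.80 FPKM in the scMSC group and at 8.07, 8.63 and 7.5 FPKM in the scivMSC group. All 3 DNCB libraries lay above all 9 others, the third by a small margin. DNCB minus control was 1.00 ± 0.35 on the log2 scale (adjusted p = 0.0588), DNCB minus scMSC 1.07 ± 0.35 (adjusted p = 0.0723) and DNCB minus scivMSC 0.80 ± 0.35 (adjusted p = 0.199), so Atf3 was not called. The first of these fell to 0.44 without the first DNCB library (adjusted p = 0.279), and passed the threshold with DESeq2, limma or scaling by library size alone and without the third DNCB library (adjusted p = 0.0336).

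Jun encodes c-Jun, the main dimer partner of the Fos proteins. Its levels were 40.5, 48.6 and 39.4 FPKM in the control group, 79.0, 46.5 and 46.2 FPKM in the DNCB group, 48.8, 46.4 and 38.8 FPKM in the scMSC group and 51.3, 49.0 and 42.5 FPKM in the scivMSC group. Apart from the first DNCB library, the 11 libraries lay between 38.8 and 51.3 FPKM and the groups overlapped. On the log2 scale DNCB minus control came to 0.23, DNCB minus scMSC to 0.33 and DNCB minus scivMSC to 0.26, each with an SE of 0.21 (adjusted p = 0.467, 0.366 and 0.514).

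Fosl1 encodes Fra-1, a Fos protein without a transactivation domain that AP-1 itself induces and that is known from wounded epithelium. It is ENSMUSG00000024912 at chr19:5447547-5455946, plus strand. It was low outside the DNCB group: 0.370, 0.270 and 0.316 FPKM in control, 0.171, 0.716 and 0.329 FPKM in scMSC and 0.430, 1.42 and 0.286 FPKM in scivMSC. The DNCB libraries held 5.18, 2.24 and 2.95 FPKM and did not overlap any other group. The rise was 3.22 ± 0.69 on the log2 scale against control (adjusted p = 0.00684) and 3.02 ± 0.68 against scMSC (adjusted p = 0.0157). Against scivMSC it was 2.28 ± 0.66 and missed the threshold (adjusted p = 0.0600), and 1 library, the second of scivMSC, was at 1.42 FPKM. Without that library the difference was 3.23 (adjusted p = 0.0179). The call against scMSC was lost without the first DNCB library (adjusted p = 0.0578) and without the third scMSC library (adjusted p = 0.0602). Fosl1 overlaps Ccdc85b on the opposite strand in the table's coordinates, and whether the libraries kept strand is not stated in the sources used here, so their reads may not be separable. Ccdc85b itself was between 4.55 and 6.89 FPKM in all 12 libraries.

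Batf encodes a leucine zipper protein, known from lymphocytes and other immune cells, that pairs with Jun proteins and with IRF factors. It is ENSMUSG00000034266 at chr12:85686669-85709087, plus strand. It was at 0.331, 0.613 and 0.662 FPKM in the control group and at 3.50, 2.65 and 3.04 FPKM in the DNCB group. It was at 0.911, 0.261 and 0.182 FPKM in the scMSC group and at 1.09, 1.04 and 0.439 FPKM in the scivMSC group. The DNCB libraries were close together and above all others. The log2 fold change was 2.30 ± 0.57 against control (adjusted p = 0.0139), 2.73 ± 0.58 against scMSC (adjusted p = 0.0121) and 1.83 ± 0.56 against scivMSC, which missed the threshold (adjusted p = 0.0731). The first call was lost without the first control library (adjusted p = 0.0611) and the second without the second scMSC library (adjusted p = 0.0534). Beside Batf and Fosl1, the 7 neutrophil marker genes were all called higher in the DNCB group in each of the 3 comparisons, and their summed level was 2460 to 3430 FPKM in DNCB, 120 to 207 FPKM in control, 15.8 to 65.3 FPKM in scMSC and 34.3 to 177 FPKM in scivMSC. In DNCB this sum was mostly S100a9 and S100a8, with means of 1970 and 916 FPKM. The means of the other markers there lay between 3.15 (Ly6g) and 83.0 FPKM (Retnlg). The 6 T cell markers summed to 3.01 to 3.67 FPKM in DNCB and 2.46 to 4.50 FPKM in control. Their sums were 1.71 to 2.93 FPKM in scMSC and 2.37 to 2.88 FPKM in scivMSC. Of the 5 that were tested, only Cd4 was called, as higher in DNCB than in control and than in scMSC (adjusted p = 0.0262). Against scivMSC it was not called (adjusted p = 0.200). The 4 keratins of wounded epidermis (Krt6a, Krt6b, Krt16 and Krt17) summed to 7080 to 8810 FPKM in DNCB, 484 to 553 FPKM in control, 683 to 1450 FPKM in scMSC and 1150 to 4580 FPKM in scivMSC, where the second library, the one with the most Fosl1, was the highest. Of these 4 keratins, 4 were called higher in DNCB than in control, 3 than in scMSC and 0 than in scivMSC. The part of these cell types in the levels of Fosl1 and Batf was not tested.

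Junb encodes JunB, a Jun protein that restrains c-Jun and holds cytokine genes of the epidermis in check. It is ENSMUSG00000052837 at chr8:84976910-84978718, minus strand, in the table. It was the most abundant of the 10 genes, with a mean of 101 FPKM over the 12 libraries. Control libraries held 56.6, 54.9 and 64.1 FPKM, DNCB libraries 229, 135 and 147 FPKM, scMSC libraries 76.4, 133 and 80.9 FPKM and scivMSC libraries 78.1, 95.9 and 59.2 FPKM. In FPKM the DNCB group was above every other library, by the smallest margin above the second scMSC library. The TMM factors of the test were 1.03 for the second DNCB library and 0.964 for the second scMSC library. The order of these libraries therefore depends on the scaling. The log2 fold change was 1.36 ± 0.27 against control (adjusted p = 0.00504) and 1.13 ± 0.27 against scivMSC (adjusted p = 0.0302), while 0.77 ± 0.27 against scMSC missed the threshold (adjusted p = 0.0908). Without the second scMSC library the last was 1.15 (adjusted p = 0.0224). The call against scivMSC was lost on leaving out any 1 of the DNCB libraries (adjusted p = 0.111, 0.0540 and 0.0564) or the first or the third scivMSC library (adjusted p = 0.0995 and 0.116).

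Fosl2 encodes Fra-2, a Fos protein close to Fra-1, and was higher than in control in all 3 exposed groups. It is ENSMUSG00000029135 at chr5:32135801-32157842, plus strand. Levels were 10.5, 12.8 and 15.7 FPKM in control, 25.8, 26.5 and 26.2 FPKM in DNCB, 33.2, 32.2 and 26 FPKM in scMSC and 32.4, 31.2 and 23.3 FPKM in scivMSC. All 9 libraries of the exposed groups lay above the control libraries. Fosl2 rose by 0.83 ± 0.16 on the log2 scale in DNCB (adjusted p = 0.00405), by 1.07 ± 0.16 in scMSC (adjusted p = 0.00194) and by 0.98 ± 0.16 in scivMSC (adjusted p = 0.00571), each against control. DNCB differed by -0.25 ± 0.16 from scMSC (adjusted p = 0.383) and by -0.15 ± 0.16 from scivMSC (adjusted p = 0.652). It was the only 1 of the 10 genes called in either MSC group against control, where 10.4% of all genes rose in scMSC and 7.11% in scivMSC. Control libraries held more muscle transcript than all others, as given above, and its part in this difference was not tested.

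Jund encodes JunD, the Jun protein that most cells make without a stimulus. It was at 69.4, 79.8 and 84.4 FPKM in control, 75.4, 72.2 and 75.3 FPKM in DNCB, 96.1, 110 and 88.0 FPKM in scMSC and 95.4, 87.6 and 81.5 FPKM in scivMSC. In FPKM the DNCB libraries lay below all 6 MSC libraries and within the control range. The fold changes, which carry the TMM factors, placed DNCB lower than control, but Jund was not called there. The log2 fold change was -0.25 ± 0.12 against control (adjusted p = 0.167), -0.43 ± 0.12 against scMSC (adjusted p = 0.0443) and -0.25 ± 0.12 against scivMSC (adjusted p = 0.255). The call against scMSC was lost in 19 of 24 alternative settings, with adjusted p up to 0.189, among them the omission of any 1 library other than the third of scMSC.

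By mean level over the 12 libraries the order was Junb (101 FPKM), Jund (84.6), Jun (48.1), Fos (41.6), Egr1 (29.1), Fosl2 (24.7), Atf3 (8.77), Fosb (3.33), Batf (1.23) and Fosl1 (1.22). The ranges over libraries of all neighbours in this order overlapped. The ranges that follow are of FPKM, without the TMM factors of the test, and some of them depend on that scaling. The ranges of the DNCB and control groups did not overlap for 5 of the 10 genes, Fosl1, Fosl2, Junb, Atf3 and Batf, all higher in DNCB, against 31.7% of all genes. Fosl1, Junb, Atf3 and Batf were also without overlap above scMSC (17.1% of all genes) and above scivMSC (16.3%), and Jund was below both (16.0% and 16.4%). Against control, Fosl2, Junb, Jund and Egr1 lay without overlap higher in scMSC (25.9% of all genes) and Fosl2, Atf3 and Egr1 in scivMSC (24.3%). Of these only Fosl2 was called against control in either MSC group. Between scivMSC and scMSC 0 of the 10 genes were called by edgeR, DESeq2 or limma and 0 had an unadjusted p under 0.05, where edgeR called 0.00457% of all genes.

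**Figure D2:**
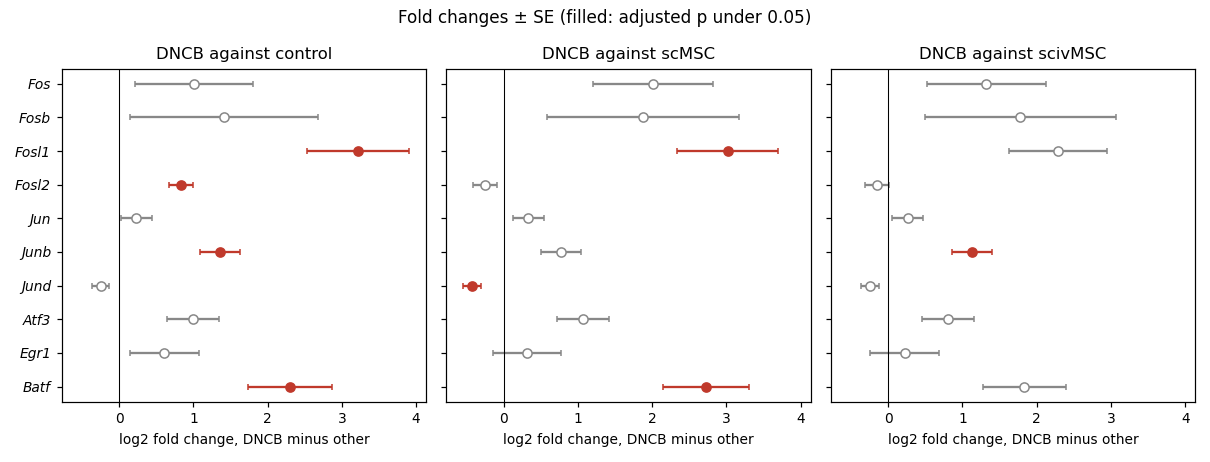
Log2 fold change ± SE of the 10 genes in DNCB minus control, scMSC and scivMSC (edgeR, 3 libraries per group), with filled red points at an adjusted p under 0.05. Fosl1 and Batf lie farthest to the right, Fosl2 is above 0 only against control, and the bars of Fos and Fosb are the widest.

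The 10 genes differed widely in their spread between libraries of 1 group. The biological coefficient of variation fitted over the 12 libraries was 0.641 for Fos, 0.971 for Fosb and 0.398 for Egr1, which put them at percentiles 98.5, 99.8 and 94.7 among genes of like abundance. At the other end Jund had 0.142 and Fosl2 0.166, at percentiles 25.4 and 44.0. Junb (0.247), Jun (0.200), Atf3 (0.312), Fosl1 (0.547) and Batf (0.475) lay between percentiles 67.7 and 84.7. Leaving out the first DNCB library took Egr1 to 0.171 (percentile 45.4) and Jun to 0.159 (percentile 35.2), but left Fos at 0.460 (percentile 96.4) and Fosb at 0.661 (percentile 98.2). The remaining spread of Fos and Fosb was in the other groups too: replicate 1 was the highest library of its group for both genes in all 4 groups, which held for 1.53% of all genes tested. Replicate numbers did not pair the samples over all genes, with correlations of same-numbered libraries between -0.19 and 0.13.

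In TMM-normalized CPM (estimated counts scaled to the size of each library), the first DNCB library was at least 2 times both of its fellow libraries for 4 of the 10 genes (Fos, Fosb, Atf3 and Egr1), against 3.19% of all genes. From a list of 30 other immediate early genes, 6 did the same (Nr4a1, Dusp1, Zfp36, Btg2, Ccn1 and Arc). Dusp1, a phosphatase that switches MAP kinases off, was at 72.9, 25.7 and 26.1 FPKM in the DNCB group. Zfp36, which destabilizes cytokine messages, was at 73.4, 30 and 29.9 FPKM. The matricellular gene Ccn1 was at 77.5, 21.6 and 28.9 FPKM, and the nuclear receptor gene Nr4a1 at 39.0, 12.1 and 12.4 FPKM. Of 9 heat shock genes 0 did so, and neither neutrophil markers (3140, 3430 and 2460 FPKM) nor wound keratins (7080, 8810 and 8260 FPKM) were highest by such a margin in that library. In the other groups the same margin was met by Fos and, in this CPM but not in FPKM, Fosb in the first control library, by Fos, Fosb and Batf in the first scMSC library, and by Fosl1 in the second library of each MSC group. The calls of DNCB against control did not rest on the first DNCB library, since without it the same 4 genes were called.

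**Figure D3:**
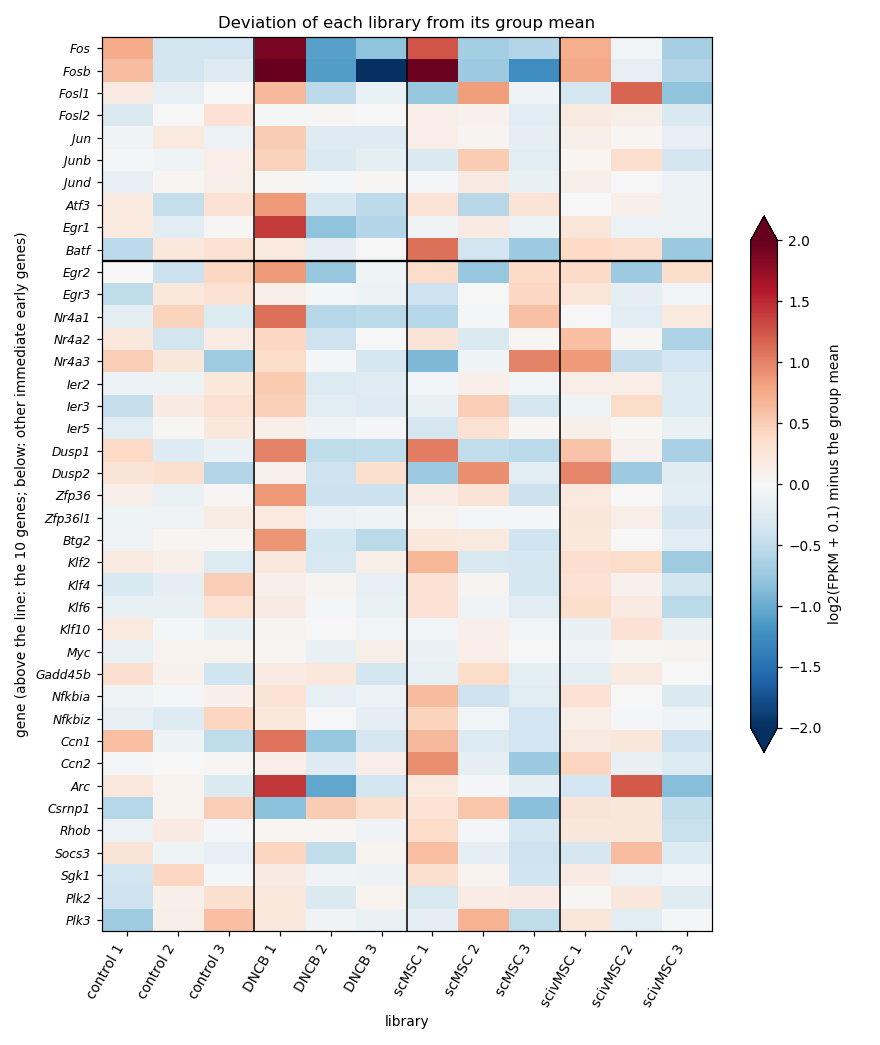
Deviation of each library from the mean of its group in log2(FPKM + 0.1), for the 10 genes above the line and 30 other immediate early genes below it, with the colour scale ending at 2 in either direction. The first DNCB library is dark red for Fos, Fosb, Egr1 and Arc, and red for Nr4a1, Dusp1, Zfp36, Btg2 and Ccn1, while Jund and Fosl2 are pale throughout.

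Genes whose pattern over the 12 libraries was most like that of 3 of the genes were sought among 14385 genes, as a description. For Fos these were Dusp1 (Pearson r = 0.932), Ccn1 (0.882), Fosb (0.878), Cd47 (0.858) and Osbpl7 (0.827). For Fosl1 they were Bcl3 (0.967), Tnf (0.964), Epgn (0.962), Ptgs2 (0.957) and Hbegf (0.952), and for Junb they were Lars (0.944), Rassf1 (0.938), Slc7a11 (0.937), Ube2q2 (0.934) and Gnb1 (0.932). The likeness to Fosl1 and Junb includes the difference between the DNCB group and the other groups, which many genes share.

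Of 15 other genes of the leucine zipper class, among them dimer partners of AP-1 proteins, 4 rose and 1 fell in DNCB against control, 2 rose against scMSC and 2 against scivMSC. The shares of all genes tested that rose in these 3 comparisons were 12.9%, 5.77% and 3.6%. Against control 25.3% of all genes were called in either direction, and 6.95% fell against scMSC. Against scivMSC 1787 of the 21890 genes were called in either direction. Jdp2, a repressor that dimerizes with Jun proteins, was at 5.34 ± 0.659 FPKM (SD, n = 3) in control and 18.5 ± 2.65 FPKM in DNCB, a rise of 1.61 ± 0.34 (adjusted p = 0.00633), with 1.93 ± 0.34 against scMSC (adjusted p = 0.00532) and 1.52 ± 0.34 against scivMSC (adjusted p = 0.0228), the last call lost in 6 of 24 settings. Nfe2l2, the regulator of antioxidant genes, rose by 0.93, 1.17 and 0.90 in the same 3 comparisons (adjusted p = 0.00217, 0.00220 and 0.00937). Bach1, a repressor of antioxidant genes, rose by 0.69 ± 0.19 against control (adjusted p = 0.0247), a call lost in 6 of 24 settings with an adjusted p of up to 0.254.

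Of the 30 other immediate early genes 10 rose and 1 fell against control, 9 rose and 3 fell against scMSC, and 3 rose and 3 fell against scivMSC. By comparison, 12.9%, 5.77% and 3.6% of all genes tested rose, and 6.95% fell against scMSC. The median log2 fold change of the list was 0.56, 0.24 and 0.28. Ier3, an early gene of the NF-kappaB and stress responses, rose by 1.60 ± 0.30 against control, from a mean of 38.0 FPKM in control to 131 FPKM in DNCB (adjusted p = 0.00370). It was also higher than in scMSC, by 1.90 ± 0.30 (adjusted p = 0.00355), and than in scivMSC, by 1.83 ± 0.30 (adjusted p = 0.00757). Socs3, the feedback inhibitor of cytokine receptors that signal through STAT3, rose by 1.43 ± 0.33 (adjusted p = 0.00948) and was also higher than in scMSC, by 2.52 ± 0.34 (adjusted p = 0.00220), and than in scivMSC, by 1.92 ± 0.33 (adjusted p = 0.00913). Ier5 rose by 1.09 ± 0.18 (adjusted p = 0.00188), and Ccn2, a matricellular gene, fell by 1.31 on the log2 scale (adjusted p = 0.0172), each against control. Ier5 was not called against scMSC (adjusted p = 0.0675) or scivMSC (adjusted p = 0.0530). Ccn2 was lower in DNCB than in both (adjusted p = 0.0277 and 0.0361). Arc, an early gene known from neurons, was higher in DNCB than in scMSC by 2.56 ± 0.67 (adjusted p = 0.0294), but its DNCB libraries held 15.6, 2.78 and 4.42 FPKM and the call was lost without the first of them. Dusp2, a phosphatase of MAP kinases, was higher in the MSC groups: 14.8, 47.1 and 21.3 FPKM in scMSC and 18.6, 5.65 and 7.91 FPKM in scivMSC, against 2.67, 1.85 and 3.16 FPKM in DNCB. DNCB had a log2 fold change of -3.49 ± 0.58 against scMSC (adjusted p = 0.00406) and -2.07 ± 0.55 against scivMSC (adjusted p = 0.0423), the second lost in 10 of 24 alternative settings. Beside it, hair keratins summed to 4550 to 12700 FPKM in scMSC, 1780 to 4340 FPKM in scivMSC and 221 to 700 FPKM in DNCB, and their part was not tested.

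Of 30 genes of the MAP kinase and SRF pathway, which carry the signal to the Fos and Egr1 promoters, 5 rose and 6 fell against control, 2 rose and 5 fell against scMSC and 3 rose and 3 fell against scivMSC. Among all genes tested, 12.9%, 5.77% and 3.6% rose in these comparisons, and 6.95% fell against scMSC. Elk3, an SRF partner, was the gene that rose in all 3, by 1.41 ± 0.21, 1.43 ± 0.21 and 1.39 ± 0.21 (adjusted p = 0.00140, 0.00273 and 0.00568), from 4.31 ± 0.848 FPKM in control to 13 ± 0.581 FPKM in DNCB. Mapk13, the p38 delta kinase of epidermis, was lower in all 3, with log2 fold changes of -1.06 ± 0.28, -1.16 ± 0.28 and -1.21 ± 0.28 (adjusted p = 0.0179, 0.0211 and 0.0263), calls lost in 4, 5 and 6 of 24 settings, that without the first DNCB library among them in each. Mapk12, the p38 gamma kinase of skeletal muscle, was lower than in control, with a log2 fold change of -1.67 ± 0.29 (adjusted p = 0.00259), beside the lower muscle markers given above. Dusp5, a nuclear phosphatase of ERK, rose by 1.08 ± 0.35 (adjusted p = 0.0439), a call lost in 13 of 24 settings.

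The 20 known AP-1 target genes had the largest median of the 5 related lists: 3.15 against control, 3.34 against scMSC and 2.29 against scivMSC. The medians of the neutrophil markers were larger, at 4.2, 6.31 and 4.98, and those of the wound keratins were 4.44, 3.92 and 1.96. Among the 20 target genes, 15 rose and 1 fell against control, 15 and 1 against scMSC, and 11 and 1 against scivMSC. The shares of all genes that rose were 12.9%, 5.77% and 3.6%. Spp1 (osteopontin) was at 4.21, 3.29 and 4.36 FPKM in control and at 197, 143 and 119 FPKM in DNCB, a rise of 5.09 ± 0.66 (adjusted p = 0.000857), with 5.06 ± 0.66 against scivMSC (adjusted p = 0.00398). Ptgs2, which encodes the cyclooxygenase of inflamed tissue, rose by 5.02 ± 0.55 against control (adjusted p = 0.000514), and Tnc, which encodes a matrix protein of healing wounds, by 4.78 ± 0.47 (adjusted p = 0.000431). Mmp13, a collagenase, was at 0.458 ± 0.110 FPKM in control and 13.4 ± 3.24 FPKM in DNCB, and rose by 4.68 ± 0.90 (adjusted p = 0.00406), with 5.33 ± 0.93 against scMSC (adjusted p = 0.00498). Il6 had 234, 65 and 170 estimated counts in DNCB and at most 8 in every MSC library, which was under the floor of 12 counts, taken as 3 fragments, per library. It was at least 13.3-fold higher in DNCB than in scMSC and at least 13-fold higher than in scivMSC on that floor. It was not called against control (adjusted p = 0.0745), and its calls against scMSC (adjusted p = 0.0238) and scivMSC (adjusted p = 0.0435) were lost in 6 and 11 of the alternative settings, among them each omission of the first DNCB library. The gene that fell was Lor (loricrin), a structural protein of the outermost epidermis, with 1170, 1910 and 2380 FPKM in control and 291, 370 and 277 FPKM in DNCB, a log2 fold change of -2.71 ± 0.36 against control (adjusted p = 0.000948). Several of these genes are also made by neutrophils and wound-edge keratinocytes, and the part of these cells was not tested. As given above, the neutrophil markers were called higher in DNCB in all 3 comparisons. The wound keratins were called against control and, for 3 of the 4, against scMSC, but 0 were called against scivMSC.

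**Figure D4:**
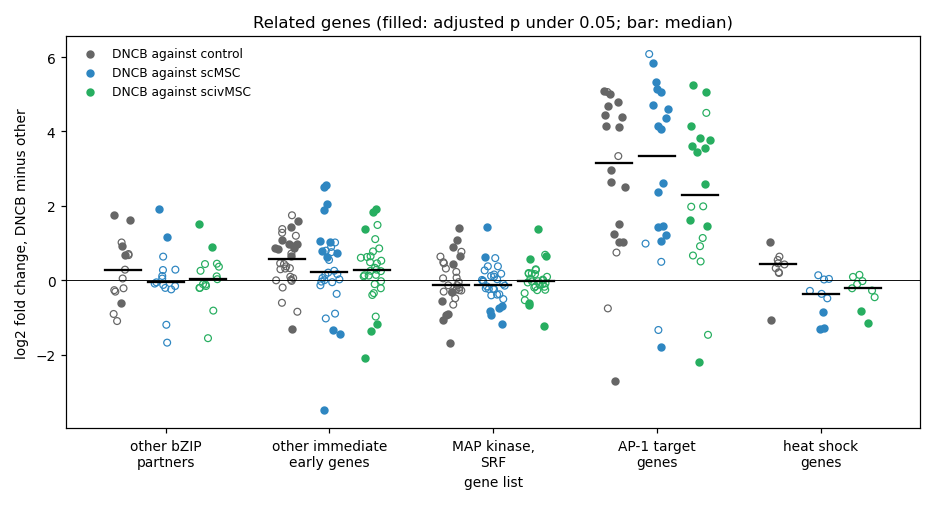
Log2 fold change of DNCB minus control, scMSC and scivMSC for each gene of 5 lists, with filled points at an adjusted p under 0.05 and a bar at the list's median. The AP-1 target genes have medians of 3.15, 3.34 and 2.29, and the bars of the other 4 lists lie between -0.36 and 0.56. The fitted value of Il6 against the MSC groups depends on counts under the floor. That of Mmp10 against scMSC, 6.08 and not called, rests on 0.0799, 0 and 0 FPKM in scMSC. Libraries at 0 FPKM of Mmp10 were also present in control and scivMSC.

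Of the 20 target genes 14 had a promoter window, and 7 of these (50.0%) held TGACTCA on either strand, against 5.20% of all windows. The stretches around this site are shown to make the motif of these genes visible, on the strand of the gene, with the site in capitals (TGAGTCA is the same site read on the other strand).
Lor: gatcaatagaTGAGTCAgagcaggaca
Plaur: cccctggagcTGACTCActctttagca
Mmp13: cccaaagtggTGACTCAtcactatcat
Mmp3: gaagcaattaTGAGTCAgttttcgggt
Mmp10: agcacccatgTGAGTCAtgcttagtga
They lie at chr3:92083174-92083200 (minus strand), chr7:24462404-24462430, chr9:7272469-7272495, chr9:7445766-7445792 and chr9:7502269-7502295 (plus strand) of GRCm38.p6, in the same order. The sites begin 48, 69, 35, 46 and 63 bases before the start that RefSeq gives the gene. Among these genes Plaur, the urokinase receptor gene, rose by 4.14 ± 0.59 in DNCB against control (adjusted p = 0.00115) and Mmp3 by 2.65 ± 0.71 (adjusted p = 0.0197), while Lor fell, so genes with the same letters in their windows moved in both directions. The other 2 genes with the site were Il6 and Ivl. The list was drawn up from known AP-1 targets, so the share of windows with the site describes the list and says nothing of binding in this skin.

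Of 9 heat shock genes, which respond to stress of cells and tissue, 1 rose and 1 fell against control, 0 rose and 3 fell against scMSC and 0 rose and 2 fell against scivMSC. Among all genes tested, 12.9%, 5.77% and 3.6% rose in these comparisons, and 6.95% fell against scMSC. Hspb1, a small heat shock gene of differentiating keratinocytes, was at 306 ± 30.3 FPKM in control, 168 ± 4.42 FPKM in DNCB, 407 ± 77.1 FPKM in scMSC and 367 ± 35.7 FPKM in scivMSC, with log2 fold changes of DNCB of -1.05 ± 0.17, -1.31 ± 0.17 and -1.14 ± 0.17 (adjusted p = 0.00174, 0.00199 and 0.00533). Hsp90aa1 rose by 1.03 ± 0.29 against control (adjusted p = 0.0259), a call lost in 6 of 24 settings with an adjusted p of up to 0.202. Hsph1 was lower in DNCB than in scMSC and scivMSC, with log2 fold changes of -1.27 ± 0.18 and -0.82 ± 0.17 (adjusted p = 0.00231 and 0.0197), the second call lost in 4 of 24 settings.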

How the data were processed

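Total RNA of dorsal skin was extracted and sequenced in 12 libraries, and whether each came from 1 mouse is not stated in the study's methods. The deposited table holds 2 measures per library: FPKM, which the authors scaled for transcript length and depth, and estimated counts, deposited as whole numbers without scaling. Per the labels, the submitters' processing notes list Bowtie 0.12.2, HISAT2 2.0, StringTie 1.3.0 and the build mm8, with no roles; the counting tool and annotation are not given in the sources used here. The gene coordinates in the table are those of GRCm38, since 32007 of the 36287 identifiers found in GENCODE M21 have the same start and end there. About 4 estimated counts may stand for 1 fragment, and the floor was taken on that basis (38.9% to 41.2% of counts from 1 to 18 were multiples of 4, against 22.2% for evenly spread counts). The depth limits only the lowest genes, and floors cover counting error only.

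The 21890 of 36400 genes whose mean over the 12 libraries reached 0.1 FPKM were tested in edgeR 4.0.16 (R 4.3.3) by quasi-likelihood, with TMM factors of 0.887 to 1.06 and 1 model of the 4 groups of 3 libraries. Adjustment was by Benjamini-Hochberg over all genes tested, and SEs were derived from the F statistic. The test was checked on simulated data with the same spread for all genes and large fold changes. That check does not cover small changes or genes with the spread of Fos or Fosb. The 10 genes, the 5 related lists, the marker lists and the comparisons were chosen with earlier results of these data known. Named from each list were up to 4 called genes with the largest change against control and up to 2 against each MSC group, of which 1 gene is not reported here; the 6 early genes high in 1 library, Lor, Plaur and Mmp3 were named after their values were seen. Alternatives were DESeq2 1.42.0, limma 3.58.1 on log2(FPKM + 0.1), other filters, scalings and pseudocounts, a replicate block, and each library left out. The omission of all 4 libraries numbered 1 was chosen after seeing the data. Coefficients of variation were compared with genes within 0.5 log2 CPM. Each library was treated as a separate animal, and blood was not analysed here. Tables and figures used Python 3.11.15, pandas 2.3.3 and matplotlib 3.10.9.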

Additional observations from a re-analysis of the deposited data

How the results depend on the processing

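Across 76 fold changes of single genes and 24 alternative settings, 1628 values kept their direction and side of the threshold, 134 lost a call, 28 gained one and 29 turned in sign. Of the 10 genes, 4 were called in DNCB against control, and 3 to 5 under the alternatives, except that 0 were called with all 4 libraries numbered 1 left out, where 8 libraries remained and 908 genes of all were called in place of 5541. That omission also gave 0 in DNCB against scivMSC and 0 in scivMSC against control. DNCB against scMSC gave 3, and 2 under 19 of 25 settings (the added fold criterion included), 3 under 5 and 5 with DESeq2. DNCB against scivMSC gave 1, and 3 with DESeq2, 2 with genes of at least 1 FPKM, 3, 2 and 3 with limma on log2(FPKM + 0.1), log2(FPKM + 0.01) and log2(FPKM + 1), 3 with counts divided by 4, 2 with the 6 libraries compared alone, and 0 to 3 with a library left out. With an added fold criterion 0 genes were called in scivMSC against control. The cause of these changes was not tested.

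Over all genes tested, replicate numbers did not pair the samples, a measure that cannot show an effect limited to a few genes. With a replicate block the counts were 4, 3, 1, 1, 1 and 0 for DNCB against control, scMSC and scivMSC, each MSC group against control, and scivMSC against scMSC, and in DNCB against scMSC Fos was then called in place of Jund. Under the block Fosb turned to -0.19 in DNCB against control.

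Values that turned in sign belong to Fos, Fosb, Jun, Egr1 and, in the MSC groups, Fosl1, none of them called with all libraries. For DNCB against control the range with a library left out was -0.58 to 1.47 for Fos, -2.14 to 1.97 for Fosb, -0.073 to 0.37 for Jun and -0.44 to 0.96 for Egr1. Without the libraries numbered 1 these were -0.084, -1.72, -0.10 and -0.32. With limma Fosb was -0.17 (pseudocount 0.1) and -0.27 (pseudocount 0.01). For DNCB against scMSC the range was -1.67 to 3.64 for Fosb and -0.74 to 0.66 for Egr1, and Egr1 was -0.012, -0.013 and -0.0025 with limma at pseudocounts 0.1, 0.01 and 1, and -0.80 without the libraries numbered 1. For DNCB against scivMSC the range was -0.27 to 1.75 for Fos, -1.77 to 2.34 for Fosb, -0.041 to 0.40 for Jun and -0.83 to 0.57 for Egr1. There Fosb was -0.051 with limma at pseudocount 0.01 and -1.29 without the libraries numbered 1, and Egr1 was -0.12, -0.12 and -0.11 with limma and -0.72 without the libraries numbered 1. Fosl1 ranged from -0.62 to 0.58 in scMSC against control and from -0.0040 to 1.27 in scivMSC against control.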
